A study of Mus musculus with 12 samples.

Results

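Acaca, Acacb, Acat2, Acsf3 and Acot12 encode enzymes that make or use acetyl-CoA and malonyl-CoA, the carbon units of fatty acid and sterol synthesis. These 5 genes were taken by name from a panel of 736 gene rows, and all 5 were found. Their RNA was measured with nCounter probes, colour-coded probes that are counted one by one on single RNA molecules, in 12 libraries of total RNA from male mice of the C57BL6-NJ background. The 4 groups of 3 libraries were constitutive SphK2 knockouts on Western diet with sugar water (WDSW), wild type on WDSW, knockouts on control diet with normal water (CDNW), and wild type on CDNW. SphK2 makes sphingosine-1-phosphate, and in a constitutive knockout it is missing from every cell type. The growth protocol gives 16 weeks of feeding, whereas the sample labels list 16 to 27 weeks, a different number for each library. The listed weeks rise by 1 per library in sample order. In positions 1 to 8 of that order all knockouts have higher numbers than all wild type, and likewise in positions 9 to 12. The part of labelled duration in the results was not tested. By the labels, mice were 217 to 252 days old (WDSW knockout), 226 to 232 (WDSW wild type), 250 to 259 (CDNW knockout) and 231 to 232 (CDNW wild type).

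Acetyl-CoA carboxylase adds a carboxyl group to acetyl-CoA and so makes malonyl-CoA, the committed step of fatty acid synthesis. In the cytosol of hepatocytes malonyl-CoA feeds fatty acid synthase, and at the mitochondrial surface it blocks the entry of fatty acids into oxidation. Acetyl-CoA that is not carboxylated can be condensed by a cytosolic thiolase, the entry into cholesterol synthesis, or split back to acetate and free CoA.

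The labels name no tissue. Of 16 hepatocyte markers 11 were measured here, and none of the 11 was at the lowest listed value of 21 in any library (267 for Agxt to 109866 for Apoa1). They were counted only among the rows from A2m to Cat (111 rows), kept because their names match known liver levels, so they are no independent check of the tissue. Of 4 B cell markers 2 were measured: Blk was at 21 in all 12 libraries and Btk was 21 to 63.0. Their summed signal was 42 to 84.0 in WDSW knockouts and 42 to 45.8 in WDSW wild type, and 47.6 to 74.4 in CDNW knockouts and 42 to 48.7 in CDNW wild type, and their part in the results was not tested. No marker of macrophages, stellate cells, adipocytes or cholangiocytes in the lists used lay among those rows, so the part of these cells was not tested. All 5 genes described here lie from A2m to Cat. WDSW wild-type replicate 3 was the shallowest library, with a recovered depth of 1138914 counts, and the other 11 held 1702816 to 1924846. The 5 genes stood well above the floor everywhere, at 191 to 1957 counts, and all 5 would pass any filter on low values used here. CDNW wild-type replicate 2 and CDNW knockout replicate 2 stood apart from the other libraries of their groups in Acat2, each at the level of the other genotype. SphK2 itself was not analysed here, so genotypes are those of the labels, and whether the labels of these 2 libraries were exchanged was not tested. Control-diet and averaged genotype values rest on them.

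Acat2 is the cytosolic acetyl-CoA acetyltransferase. It joins acetyl-CoA units into acetoacetyl-CoA for sterol synthesis and should not be confused with the sterol O-acyltransferase Soat2, which has also been called ACAT2. It had the largest SD of log2 signal over libraries among the 5 genes. In WDSW knockout libraries its normalized signal was 556, 604 and 609.8, and in WDSW wild-type libraries it was 1273, 1475 and 935. All 3 knockout libraries on this diet were below all 3 wild-type libraries, and the lowest wild-type value came from the shallowest library. The knockout mean was 589.7 ± 29.6 and the wild-type mean 1228 ± 273 (SD, n = 3 each). The fitted log2 fold change was -1.03 on the log2(value + 1) scale, with a 95% interval of -2.03 to -0.03. In limma's fit over all 736 rows the unadjusted p was 0.0444 and the Benjamini-Hochberg adjusted p 0.226, so the difference did not pass the threshold of 0.05. This fit pools the spread of all 4 groups, control diet included, and its SE was 0.44. With only the 2 WDSW groups the SE was 0.18, and the limma adjusted p of 0.119 did not pass either.

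On control diet the Acat2 values of both genotypes were split. They were 663, 1449 and 601 in CDNW knockout libraries (replicates 1 to 3) and 1510.5, 593 and 1635 in CDNW wild-type libraries. In each of these groups replicate 2 had the level seen in libraries of the other genotype, and the groups overlapped. The log2 fold change was -0.45 (95% interval -1.45 to 0.55, limma adjusted p = 0.707). Without both replicates 2, a choice made because of their values, it was -1.31 on control diet (adjusted p = 0.0335), and on Western diet the unchanged -1.03 had an adjusted p of 0.0227. Such a choice makes neither value an independent test. In bulk RNA, fewer cells of a type and less RNA per cell cannot be told apart.

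The bases before the start of Acat2 are shown with those of Acsf3, as the widest and a narrow spread among the genes whose listed start lies at the edge of the annotated gene. Each sequence is the 250 bases upstream of the start, 5′ to 3′, from RefSeq (GRCm38.p6). Capitals mark a GC box (GGGCGG on either strand) or a CCAAT box (CCAAT on either strand).
Acat2 (chr17:12960726-12960975, minus strand): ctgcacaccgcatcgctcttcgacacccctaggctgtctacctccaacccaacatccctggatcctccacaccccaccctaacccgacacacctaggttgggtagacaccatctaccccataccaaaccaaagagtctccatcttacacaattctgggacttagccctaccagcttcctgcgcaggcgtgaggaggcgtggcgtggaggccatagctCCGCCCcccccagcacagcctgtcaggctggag
Acsf3 (chr8:122775236-122775485, plus strand): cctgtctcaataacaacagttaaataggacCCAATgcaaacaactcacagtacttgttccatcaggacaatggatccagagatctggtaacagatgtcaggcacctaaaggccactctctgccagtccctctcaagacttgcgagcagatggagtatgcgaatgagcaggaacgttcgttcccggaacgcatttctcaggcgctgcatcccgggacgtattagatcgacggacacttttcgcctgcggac
Of 32851 such mouse windows, 32.7% hold a GC box and 33.8% a CCAAT box, so neither match is unusual. The E-box CACGTG (6.02% of windows) and the sterol element TCACNCCAC (1.05%) were searched on both strands and are not in these windows. The listed starts of Acaca and Acacb lie inside the annotated genes, and that of Acot12 lies 195 bases inside, so their windows are not shown. A match is only a match of letters.

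Acaca is the cytosolic acetyl-CoA carboxylase that supplies malonyl-CoA to fatty acid synthase. On Western diet its difference between genotypes was opposite in direction to that of Acat2. WDSW knockout libraries had 1315, 1222 and 1897, and WDSW wild-type libraries had 914, 976 and 797. The groups did not overlap, with the knockout libraries higher. Mean signals were 1478 ± 366 in knockouts and 896 ± 91.0 in wild type (SD, n = 3 each), and the log2 fold change was 0.70 (95% interval 0.09 to 1.31, limma unadjusted p = 0.0293, adjusted p = 0.199), which did not pass. On control diet, knockout libraries had 1722, 812 and 1269 and wild-type libraries 878, 1136 and 1003. These overlapped, with replicate 2 of the knockouts lowest and replicate 2 of the wild type highest in its group (log2 fold change 0.28, 95% interval -0.34 to 0.89). Without CDNW knockout replicate 1 this value was 0.02, without CDNW knockout replicate 2 it was 0.56, and with age as a covariate it was -0.15. On control diet all knockouts were older than all wild-type libraries, so age and genotype cannot be told apart there.

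Acacb, the carboxylase anchored at the mitochondrial outer membrane whose malonyl-CoA restrains carnitine palmitoyltransferase, did not follow Acaca. It was 367, 482 and 678 in WDSW knockout libraries and 967, 899.9 and 567 in WDSW wild-type libraries. The shallow wild-type replicate 3 lay below the highest knockout library, so the groups overlapped. Mean signals were 509 ± 157 in knockouts and 811 ± 214 in wild type (SD, n = 3 each, log2 fold change -0.68, 95% interval -1.61 to 0.25, limma adjusted p = 0.372). By labelled position the difference was -1.15 in positions 1 to 8 (2 libraries a group) and 0.26 in positions 9 to 12 (1 library a group), against -1.24 and -0.62 for Acat2 and 0.42 and 1.25 for Acaca. On control diet the values were 0.33 and -0.85 for Acacb, 0.05 and -1.44 for Acat2 and 0.24 and 0.34 for Acaca. A single library a group gives no spread, so no direction is read from positions 9 to 12. CDNW knockout libraries were close together at 736, 708 and 726, while CDNW wild-type libraries ranged widely at 813, 405 and 1306. The log2 fold change on control diet was -0.06 (95% interval -0.99 to 0.87), an interval that holds a difference of the Western-diet size in either direction.

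**Figure D1:**
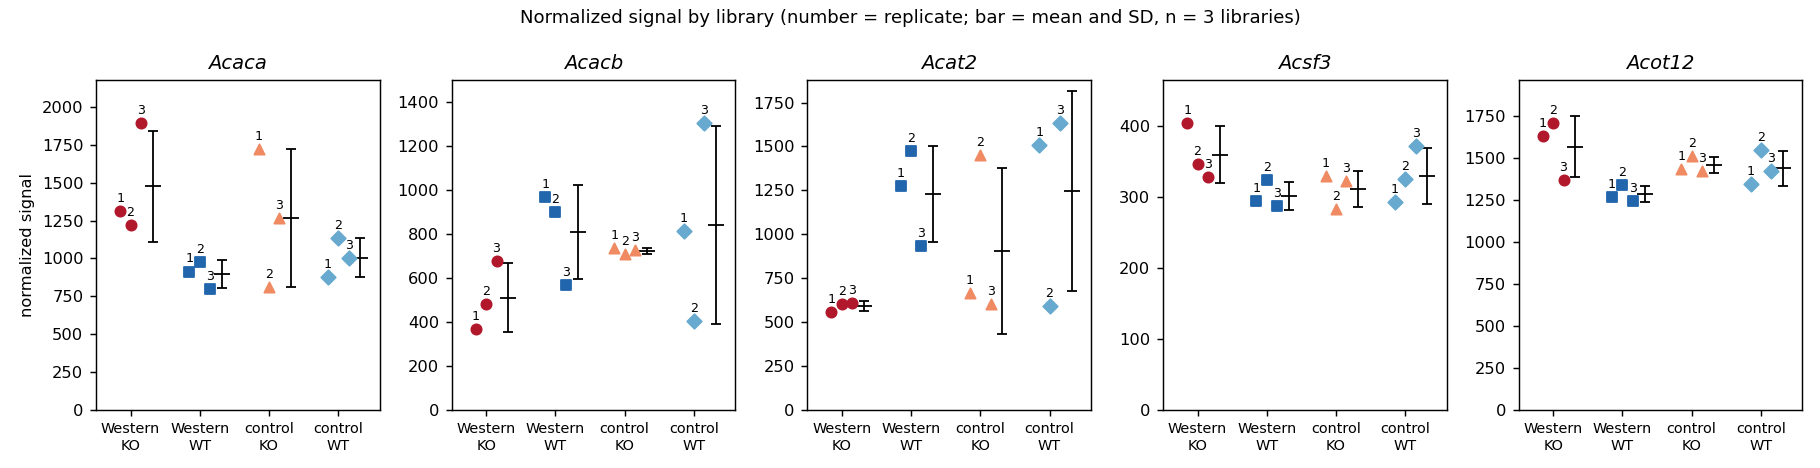
Normalized signal (linear axis from 0) of the 5 genes in each library, by group, with replicate numbers above the points and the group mean and SD beside them (n = 3 libraries). Acat2 is at 556 to 609.8 in Western-diet knockouts whereas Western-diet wild-type libraries have 935 to 1475, and replicate 2 of each control-diet group lies on the far side of its group.

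Acsf3, the mitochondrial malonyl-CoA synthetase, and Acot12, a hydrolase that splits acetyl-CoA in the cytosol, varied far less. Acsf3 was 405, 346 and 329 in WDSW knockouts and 294, 324 and 287 in WDSW wild type. Acot12 was 1628, 1709 and 1365 in WDSW knockouts and 1266, 1339.8 and 1245 in WDSW wild type. For both genes the knockout libraries on this diet lay above all wild-type libraries without overlap, though by a small margin (329 against 324 for Acsf3, and 1365 against 1339.8 for Acot12). The log2 fold changes were 0.25 for Acsf3 (95% interval 0.00 to 0.50, limma unadjusted p = 0.049, adjusted p = 0.236) and 0.28 for Acot12 (0.09 to 0.47, unadjusted p = 0.00873, adjusted p = 0.143). Neither passed. Acot12 had the smallest p of the 5 genes in this fit, although its fold change was among the smaller ones. The fit pools the spread of all 4 groups. With only the 2 groups compared, Acat2 had the smaller limma unadjusted p, 0.00312 against 0.0367 for Acot12. Their adjusted p-values were 0.119 and 0.208, so these did not pass. The fold changes of Acsf3 and Acot12 depended on the median used for scaling. With each library centred on its median over all 736 rows they were 0.09 and 0.12. Against the median of the 538 rows above the floor in every library they were 0.24 and 0.27.

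On control diet Acsf3 was 330.2, 283 and 323 in knockouts and 294, 325 and 372 in wild type, and Acot12 was 1434, 1509 and 1422 in knockouts and 1344, 1546 and 1421 in wild type. Both pairs of groups overlapped. The log2 fold changes were -0.08 for Acsf3 (95% interval -0.33 to 0.17) and 0.02 for Acot12 (-0.17 to 0.21, and -0.15 with median centring). With age as a covariate the control-diet value of Acot12 was 0.21 ± 0.08 (SE, limma adjusted p = 1).

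Counted together, 4 of the 5 genes separated knockout from wild type without overlap on Western diet: Acaca, Acsf3 and Acot12 were higher and Acat2 was lower. Of all 736 rows, 23.5% did so, 14.5% higher and 8.97% lower. The same 4 had an unadjusted p under 0.05, as did 20.9% of all rows, and none of the 5 passed after adjustment, as did 0.136% of all rows. The genes were chosen with earlier results of these data known, so no test was made of this count. With limma's array weights, whose estimation did not converge, all 5 genes passed on Western diet, as did 326 rows in all. The median log2 fold change was 0.25 over the 5 genes and 0.03 over all rows. On this diet the library medians of knockouts exceeded those of wild type by 0.16 (log2) on average. Relative to that shift the larger differences kept their direction (Acaca 0.54, Acacb -0.84 and Acat2 -1.20 after centring). On control diet 0 of the 5 separated the genotypes, where 6.66% of all rows did, and by limma 0 had an unadjusted p under 0.05 (4.76% of all rows) and 0 passed (0% of all rows).

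**Figure D2:**
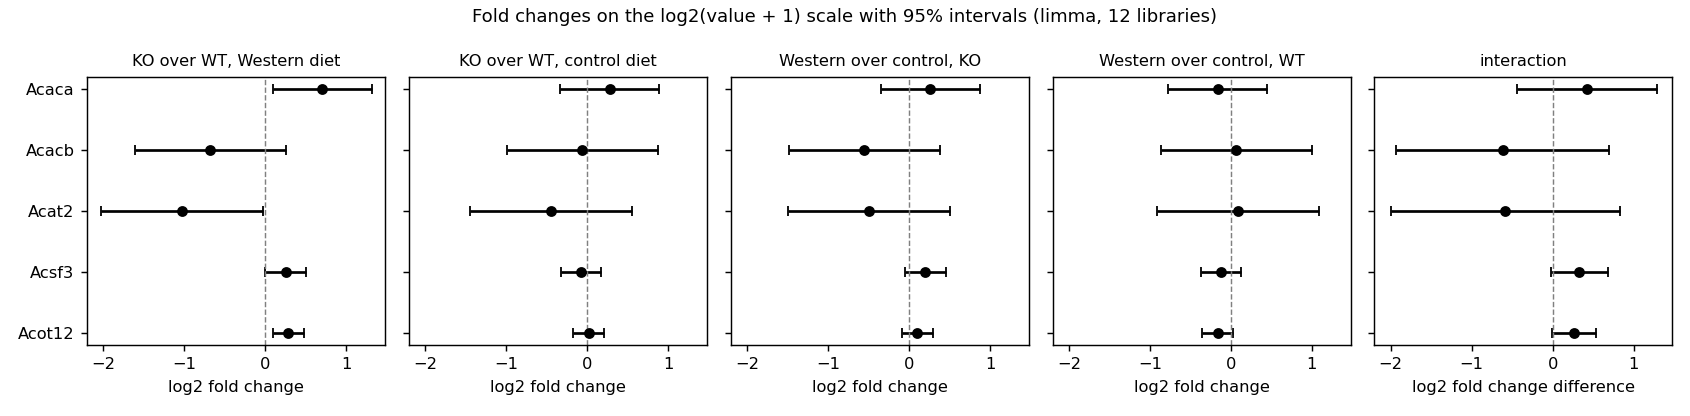
Fold changes of the 5 genes on the log2(value + 1) scale (x axis) with limma's 95% intervals in 5 comparisons, 1 panel each, fitted over 12 libraries. The intervals of Acaca, Acat2, Acsf3 and Acot12 leave out 0 for knockout over wild type on Western diet, before any adjustment for 736 rows, and no interval leaves out 0 in the other panels.

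Averaged over diets, knockout over wild type gave log2 fold changes of 0.49 for Acaca (95% interval 0.06 to 0.92), -0.74 for Acat2 (-1.45 to -0.03), 0.15 for Acot12 (0.02 to 0.29), -0.37 for Acacb (-1.03 to 0.29) and 0.09 for Acsf3 (-0.09 to 0.26). By limma 3 of the 5 had an unadjusted p under 0.05 (0.0311 for Acaca, 0.0422 for Acat2 and 0.032 for Acot12), as did 25.5% of all rows. None passed after adjustment (adjusted p = 0.18 to 0.493), as did 0% of all rows. CDNW knockout replicate 2 decided the call for Acaca, which was 0.63 with an adjusted p of 0.0343 without it. With median centring the averaged values of Acsf3 and Acot12 turned to -0.08 and -0.01, so no direction is given for them. Acaca (0.32), Acacb (-0.53) and Acat2 (-0.90) kept their sign.

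Western diet was set against control diet within each genotype. The comparisons of diet and of genotype share libraries, so their values are given side by side only. In knockouts, Acacb was the gene without overlap, lower on WDSW (367 to 678) than on CDNW (708 to 736) (log2 fold change -0.55, 95% interval -1.48 to 0.38). That is 1 of 5 genes, where 5.98% of all rows did not overlap and 3.67% were lower without overlap. Acat2 in knockouts was -0.50 (-1.50 to 0.50), Acaca 0.26 (-0.35 to 0.87), Acsf3 0.20 (-0.05 to 0.45) and Acot12 0.10 (-0.09 to 0.29). Without CDNW knockout replicate 2 the value for Acaca was -0.03 and that for Acat2 -0.10. In wild type, Acot12 was the gene without overlap, lower on WDSW (1245 to 1339.8) than on CDNW (1344 to 1546) (-0.16, 95% interval -0.35 to 0.03), again 1 of 5, where 11% of all rows did not overlap and 6.66% were lower without overlap. Acat2 in wild type was 0.09 (-0.91 to 1.09), Acacb 0.07 (-0.86 to 1.00), Acaca -0.16 (-0.77 to 0.45) and Acsf3 -0.13 (-0.37 to 0.12). Without CDNW wild-type replicate 2, Acat2 and Acacb each stood at -0.38. By limma, 0 of the 5 genes had an unadjusted p under 0.05 for diet in either genotype (2.31% of all rows in knockouts and 6.66% in wild type) and 0 passed (0% of all rows in both). Averaged over genotypes, the 5 log2 fold changes for diet lay between -0.24 and 0.05, 0 with an unadjusted p under 0.05 by limma (2.45% of all rows) and 0 passing (0% of all rows).

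The interaction, the diet effect in knockouts minus that in wild type, had its smallest p in Acot12 (0.26, 95% interval -0.01 to 0.53, unadjusted p = 0.0555) and Acsf3 (0.33, -0.02 to 0.68, unadjusted p = 0.0642). Acaca had 0.42 ± 0.38 (SE), Acacb -0.62 ± 0.58 and Acat2 -0.59 ± 0.62. Leaving out 1 library gave 0.14 (CDNW knockout replicate 2) to 0.68 (CDNW knockout replicate 1) for Acaca, -1.01 (CDNW wild-type replicate 3) to -0.17 (CDNW wild-type replicate 2) for Acacb and -0.85 (CDNW wild-type replicate 3) to -0.12 (CDNW wild-type replicate 2) for Acat2. With age as a covariate the interaction was 0.81 for Acaca, -0.30 for Acacb and 0.086 for Acot12. By limma 0 of the 5 had an unadjusted p under 0.05 (5.98% of all rows) and 0 passed (0% of all rows, adjusted p = 0.815 to 1). The interaction for Acat2 was 0.28 without both control-diet replicates 2, so its sign depended on them.

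Ratios between the carboxylases and the thiolase within a library do not depend on the library's scaling factor. Probes differ in efficiency, so only differences of a ratio between libraries can be read, not its level. The log2 ratio of Acat2 to Acaca was -1.24, -1.02 and -1.64 in WDSW knockouts and 0.48, 0.60 and 0.23 in WDSW wild type. The means of -1.30 ± 0.31 in knockouts and 0.44 ± 0.19 in wild type (SD, n = 3 each) differed by -1.73, larger than for either gene alone. On control diet the ratio was -1.38, 0.84 and -1.08 in knockouts and 0.78, -0.94 and 0.70 in wild type, so replicate 2 of each group again had the value of the other genotype. Across all 12 libraries no ratio fell between -0.94 and 0.23.

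The log2 ratio of Acaca to Acacb was 1.84, 1.34 and 1.49 in WDSW knockouts and -0.08, 0.12 and 0.49 in WDSW wild type, with no overlap. The means were 1.56 ± 0.26 in knockouts and 0.18 ± 0.29 in wild type (SD, n = 3 each), a difference of 1.38. On control diet it was 1.23, 0.20 and 0.81 in knockouts and 0.11, 1.49 and -0.38 in wild type, which overlapped. Acat2 to Acacb, in contrast, overlapped on both diets: 0.60, 0.33 and -0.15 in WDSW knockouts against 0.40, 0.71 and 0.72 in WDSW wild type, and -0.15, 1.03 and -0.27 in CDNW knockouts against 0.89, 0.55 and 0.32 in CDNW wild type. These ratios are a description and were not tested, because the genes were chosen with results known.

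**Figure D3:**
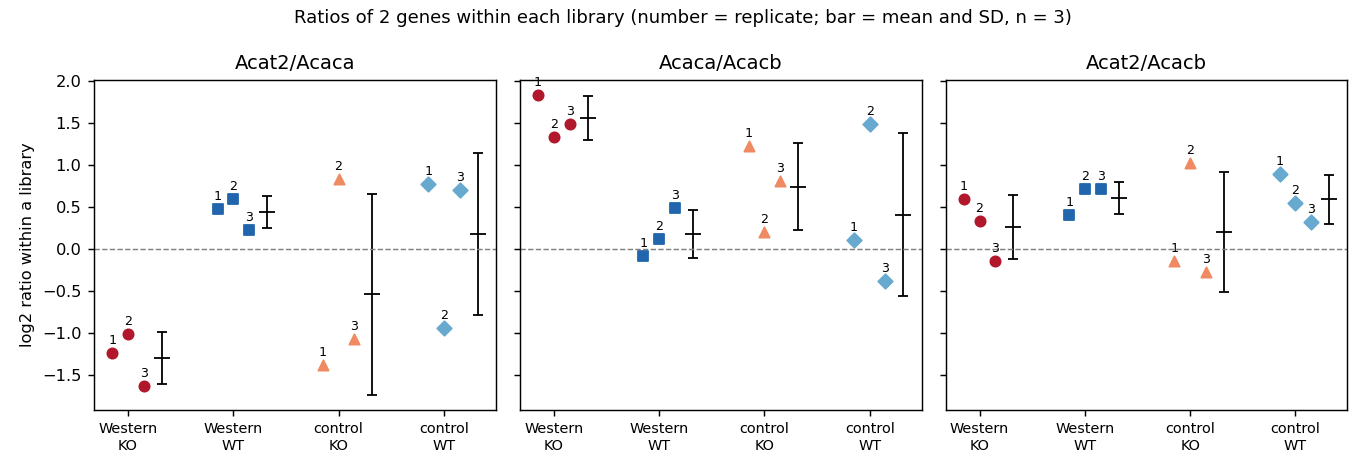
Log2 ratio of 2 genes within each library (y axis), by group, with replicate numbers above the points and the group mean and SD beside them (n = 3 libraries). The line at 0 is only a guide, since probe efficiencies differ. Acat2/Acaca and Acaca/Acacb do not overlap between Western-diet knockout and wild type, with mean differences of -1.73 and 1.38, and Acat2/Acacb does.

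Across libraries, Acat2 fell into a low set of 6 libraries (556 to 663) and a high set of 6 (935 to 1635), with its widest gap, 0.50 on the log2 scale, between them. The next widest gap was 0.44, so the division is not sharp. The low set held 5 knockout libraries and CDNW wild-type replicate 2, and the high set held 5 wild-type libraries and CDNW knockout replicate 2. The 6 libraries with the lowest Acat2 were also the 6 with the highest Acaca, at 1136 to 1897, and the other 6 had 797 to 1003. Because of this division no p-value is given for a correlation of Acat2 with the other 4 genes over all libraries, nor within the sets, which were cut on Acat2's own values. As a description, r of Acat2 and Acaca was 0.55 in the low set and 0.66 in the high set. Their opposite course over all libraries was thus seen between the sets and not within them. Sets cut on Acat2's own values cannot tell a step from a gradual course.

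**Figure D4:**
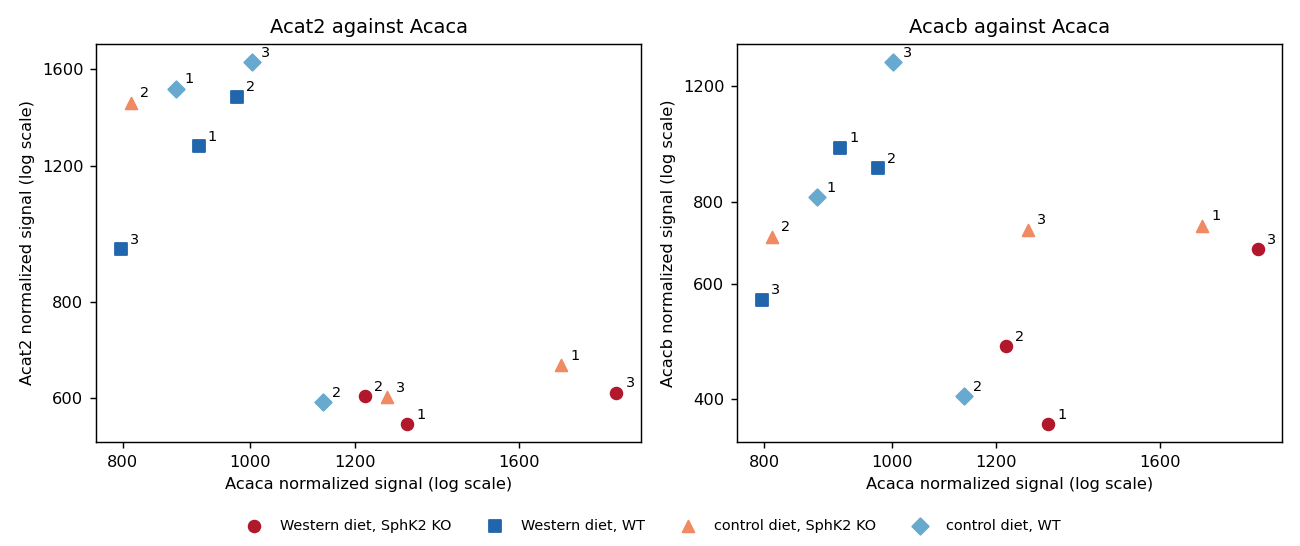
Signal of Acat2 (left) and Acacb (right) against Acaca in each library, both axes on log scales, with groups by colour and shape and replicate numbers beside the points. On the left the 6 libraries with Acaca at 1136 or more have Acat2 at 663 or less and the other 6 have Acat2 at 935 or more, while on the right the Acacb ranges of the same libraries overlap (367 to 736 and 567 to 1306).

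Of the 10 pairs of the 5 genes, the 6 without Acat2 were correlated over all 12 libraries, with p-values from 100000 permutations, two-sided, adjusted over the 10 pairs. The pairs with Acat2, whose p-values are not given, entered that adjustment. Small p-values among them lower the adjusted p of the pairs given here. Acaca and Acacb, the carboxylases, had r = -0.24 and rho = -0.27 (permutation p = 0.448 and 0.391), and r = -0.47 without the 2 libraries farthest from the median of Acaca. Acacb and Acot12 had r = -0.60 and rho = -0.59 (adjusted p = 0.107 and 0.0995, r = -0.62 without the 2 libraries farthest out), and Acsf3 and Acot12 r = 0.59 and rho = 0.54 (adjusted p = 0.107 and 0.123, r = 0.65 without 2). Acaca and Acsf3 had r = 0.51 and rho = 0.75 (permutation adjusted p = 0.163 and 0.0352, r = 0.78 without 2), so the rank relation alone was under the threshold. Acaca divides by the low and high sets of Acat2. Its p-values here take in the difference between those sets, so no relation is read from them. The permutations took no account of the groups, so differences between groups enter these p-values. With group means subtracted, Acaca and Acsf3 had r = 0.31 (permutation adjusted p = 0.56). With libraries centred on their medians their r was -0.16, so its sign depended on whether libraries were centred. Acaca with Acot12 (r = 0.31, rho = 0.49, adjusted p = 0.4 and 0.155, r = 0.69 without 2) and Acacb with Acsf3 (r = -0.25, rho = -0.19, adjusted p = 0.448 and 0.558, r = -0.35 without 2) did not pass. Acsf3 and Acot12 had r = 0.74 after centring (adjusted p = 0.0234) and 0.34 with group means subtracted (adjusted p = 0.56). Centring subtracts the same median from both genes, which adds a shared term, so nothing is read from the higher value.

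The carboxylases and the thiolase varied more over the 12 libraries than the other enzymes. The SD of log2 signal was 0.64 for Acat2, 0.53 for Acacb, 0.40 for Acaca, 0.15 for Acsf3 and 0.14 for Acot12, against a median of 0.21 over the 538 rows above the floor in every library. Acat2 stood at percentile 93.9 of these rows, Acacb at 88.8 and Acaca at 82.3, and Acsf3 and Acot12 at 33.1 and 27.1.

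The genes whose pattern over the 12 libraries was most like each of the 5 were sought among the rows from A2m to Cat with a mean above 50, by Pearson's r of log2 signal, as a description. Acat2 was most like Amdhd1, an enzyme of histidine breakdown (r = 0.88), Agxt, the alanine-glyoxylate aminotransferase (0.86), and the urea cycle's Ass1 (0.79). These r values span the division of the libraries by Acat2. Amdhd1 was 1839.8 to 2319 in the low set and 2641 to 3046 in the high set. Agxt was 267 to 525 in the low set and 686 to 879 in the high set. Each r thus takes in the difference between the sets. Acacb had Amdhd1 (0.79), Acat2 (0.76) and Acmsd of the kynurenine pathway (0.70). Acaca was most like Apoc2, the activator of lipoprotein lipase (0.89), and Bcl2a1a, an anti-apoptotic Bcl-2 relative of blood cells (0.88). Bcl2a1a ranged from 63.5 to 442, and its log2 fold change for knockout over wild type averaged over diets was 1.51 (limma adjusted p = 0.174). The part of such cells in the values of Acaca was not tested. Apoc2 was 6333 to 10925 in the low set of Acat2 and 2690.1 to 4742 in the high set. Acaca divides by the same sets, so its r with Apoc2 also takes in the difference between them. Acot12 was nearest to Apoe (0.89), Aldh2 (0.87) and the mitochondrial thiolase Acat1 (0.87), and Acsf3 to the acyl-CoA dehydrogenase Acadl (0.66), Apoe (0.61) and Acot12 (0.59). The median r over the 77 rows compared was -0.07 to 0.10 for the 5 genes.

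Other genes of the pathway were few in the part of the table with dependable names. Of 29 listed genes of lipid synthesis and acetyl-CoA supply 3 were measured there (Acat1, Akt1 and Akt2). Of the listed genes of fatty acid oxidation, Acaa2, Acadl and Acat1 are described. By limma none of these genes passed in any of the 7 comparisons. Acadl, the long-chain acyl-CoA dehydrogenase of mitochondria, averaged 3616 ± 289.5 in WDSW knockouts and 2719.8 ± 387 in WDSW wild type (SD, n = 3 each). Its log2 fold change was 0.42 ± 0.10 (SE, limma adjusted p = 0.0861). Acat1, the mitochondrial thiolase, averaged 9100.2 ± 1133 in WDSW knockouts and 6037 ± 1423 in WDSW wild type (SD, n = 3 each). The fitted difference for Acat1 was 0.61 ± 0.17 on the log2 scale (SE, limma adjusted p = 0.113). Acaa2, a mitochondrial thiolase of fatty acid breakdown, had a log2 fold change of 0.10 ± 0.11 (SE, limma adjusted p = 0.632). On control diet the genotype values were -0.0 ± 0.1 for Acadl, 0.04 ± 0.17 for Acat1 and -0.06 ± 0.11 for Acaa2 (SE). For Western over control diet in wild type they were -0.35, -0.43 and -0.17. Median-centred values are not given for these genes. Rows further down carry names of the pathway too, some at levels that do not match mouse liver. The row named Scd1, a gene abundant there, was at 159 to 197 and that named Fasn at 60.9 to 77.7, while the row named Cpt1a had group means of 8143 to 14823. Of 13 names of carboxylase regulators 10 were measured, and of 20 later lipid names 4, and none passed by limma in any comparison. They are not described further.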

How the data were processed

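The deposited table holds a normalized signal per gene row and library, made by the authors from nCounter probe counts of Trizol-extracted total RNA, per the labels' protocols. No source used here names the software or the normalizing genes. Dividing a library's values by 1 factor (0.906 to 1.50 signal units per count) gave whole numbers, within 0.1, for 100% of those over 21 and under 3000, and these are the recovered counts. Lower values are listed at 21, so 77 to 185 rows per library have no recoverable count and no count model was used.

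Values were tested as log2(value + 1) with limma 3.58.1 in R 4.3.3: 4 group means over 12 libraries, 8 residual degrees of freedom, 7 contrasts, Benjamini-Hochberg over 736 rows, threshold 0.05. The fit was tested on simulated data. Correlations used Python 3.11.15. The prior degrees of freedom were 0.705, and 42 rows were at 21 in every library. Replicate numbers follow sample order and pair nothing. The labels do not say outright that the 3 libraries of a group come from separate animals, though each library's title carries a different number. Labelled ages differ among all libraries of each knockout group, and some are shared within the wild-type groups. The p-values measure the spread between these samples. Alternatives were median centring, a low-value filter, log2(value + 10), an intensity trend, array weights, age, position, only the groups compared and leaving out each library. Omitting both control-diet replicates 2 was added after the values were seen. The genes and lists were chosen with earlier results of these data known. Named genes were the 5, the 3 rows most like each, and up to 4 of smallest p from each list. Some of these are not reported here, and rows after Cat are given only under the name they carry. All 736 names were found in RefSeq's mouse table. Probe sequences were not used here, so cross-binding between Acaca and Acacb was not tested.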

Additional observations from a re-analysis of the deposited data

How the results depend on the processing

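No paired analysis was possible because the labels give no replicate numbers. Of 265 values under other settings on all libraries (5 genes, 7 contrasts), 243 kept direction and side of the threshold, 11 newly passed and 11 changed sign. All 11 that newly passed came from array weights, whose estimation did not converge and which ran from 0.22 to 7.45. With them the knockout over wild type log2 fold changes on Western diet were 0.56 (Acaca), -1.23 (Acacb), -1.16 (Acat2), 0.42 (Acsf3) and 0.34 (Acot12), on control diet -1.01 (Acat2), and averaged over diets 0.52 (Acaca), -0.70 (Acacb), -1.08 (Acat2), 0.22 (Acsf3) and 0.19 (Acot12), all past the threshold by limma, as were 326 rows on Western diet (1 without weights), 195 on control diet and 371 averaged over diets (0 without weights). Counts of rows past the threshold with weights were 26 and 1 for diet in knockouts and wild type, 3 for diet averaged and 19 for the interaction, against 0 without.

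Sign changes under weights were 0.020 (Acsf3, genotype on control diet), -0.065 (Acat2, diet in wild type), -0.028 (Acaca, diet averaged) and 0.021 (Acot12, diet averaged). With median centring they were -0.15 (Acot12, genotype on control diet), -0.078 and -0.013 (Acsf3 and Acot12, genotype averaged). With age they were -0.15 and 0.024 (Acaca and Acsf3, genotype on control diet), -0.10 (Acot12, diet in knockouts) and -0.023 (Acsf3, diet averaged). The count on Western diet was 0 with centring, the low-value filter, age, the position block and only the groups compared. For diet in knockouts it was 2 with age.

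Without both control-diet replicates 2, Acat2 had -1.03 (genotype on Western diet), -1.31 (on control diet) and -1.17 (averaged), and Acaca 0.68 (averaged), all past the threshold, while -0.38 and -0.38 (Acacb and Acat2, diet in wild type), -0.028 (Acaca, diet in knockouts), -0.050 and 0.010 (Acaca and Acot12, diet averaged) and 0.28 (Acat2, interaction) had the other sign. Rows past it numbered 37, 26 and 155 for genotype on Western diet, on control diet and averaged.

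Leaving out 1 library left 404 of 420 values with the same sign and side of the threshold, moved 1 past it and turned the sign of 15. Ranges of the log2 fold changes so affected were for genotype on control diet -0.51 to 0.33 (Acacb), -0.027 to 0.074 (Acot12), -0.16 to 0.012 (Acsf3), for genotype averaged 0.36 to 0.63 (Acaca), for diet in wild type -0.38 to 0.46 (Acacb), -0.38 to 0.35 (Acat2), for diet in knockouts -0.028 to 0.51 (Acaca), for diet averaged -0.10 to 0.18 (Acaca), -0.063 to 0.018 (Acot12), -0.0054 to 0.083 (Acsf3). Rows past the threshold numbered 0 to 21 on Western diet (21 without CDNW wild-type replicate 2), 0 to 3 on control diet and 0 to 132 averaged over diets (132 without CDNW knockout replicate 2).

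By labelled position, replicates 1 and 2 (positions 1 to 8) and replicate 3 (positions 9 to 12) gave, for genotype on Western diet, -1.24 and -0.62 for Acat2, 0.42 and 1.25 for Acaca, and -1.15 and 0.26 for Acacb, with 1 library a group in positions 9 to 12. Correlations changed sign for Acaca and Acacb (0.14) and Acacb and Acsf3 (0.10) with group means subtracted, for Acaca and Acsf3 (-0.16) and Acacb and Acsf3 (0.03) with centring, and for Acaca and Acot12 with both (-0.28 centred, -0.37 with group means subtracted). That of Acsf3 and Acot12 was 0.74 with centring. Against the median row in place of a second gene, the Western-diet differences were -1.05 for Acat2 and 0.69 for Acaca. The other genes had -0.69 (Acacb), 0.24 (Acsf3) and 0.27 (Acot12). The cause of these changes was not tested. WDSW wild-type replicate 3, the shallowest library, had 185 rows at the floor, against 77 to 131 in the others.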

Other observations

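The rows most opposed to each of the 5 genes over the 12 libraries were looked at after the values were seen, among the same rows from A2m to Cat and by the same r, as a description with no test. Acat2 ran opposite to Apoa4, an apolipoprotein carried on chylomicrons and HDL (r = -0.95). That r spans the division of the libraries by Acat2 and takes in the difference between its low set and its high set. Apoa4 was 39648, 19838 and 38929 in WDSW knockouts and 2254, 1564 and 2662 in WDSW wild type, and 33899, 2685 and 25298 in CDNW knockouts and 2071, 27043 and 2208 in CDNW wild type. Replicate 2 of each control-diet group again lay at the level of the other genotype, as for Acat2. Acaca ran opposite to Agxt (r = -0.89), which takes part in glyoxylate detoxification. Acaca and Agxt divide by the same sets, so this r also takes in the difference between the sets. Agxt was 369, 525 and 267 in WDSW knockouts and 700.1, 879 and 692 in WDSW wild type, and 283, 759 and 279 in CDNW knockouts and 753, 396 and 686 in CDNW wild type. Acot12 was most opposed to the stress-response factor Atf4 (r = -0.86), Acsf3 to the insulin-signalling kinase Akt2 (-0.70) and Acacb to Agxt2, a mitochondrial aminotransferase (-0.67).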
